A study of Mus musculus with 6 samples.

Results

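Enteric neurotransmitters and neuropeptides were examined in mouse colon through 10 genes among the 24517 genes of the count tables. The genes form a named list that uses no measured value as a criterion, but was chosen with earlier results of these data known. They were 3 cholinergic genes (Chat, Slc18a3 and Slc5a7), the nitrergic gene Nos1, and the genes of 6 neuropeptide precursors (Vip, Tac1, Penk, Npy, Gal and Calcb). All 10 were counted in every library and all 10 passed the filter on low counts, together with 16347 genes in total.

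RNA sequencing of colon compared 3 libraries from NSD2fl/fl mice, which carry the floxed Nsd2 gene without its deletion, with 3 libraries from NSD2∆IE mice, in which Nsd2 is deleted in the intestine by a Cre driven by the Villin promoter. NSD2 is a histone methyltransferase of lysine 36 of histone H3. Both groups were on HFCD, a diet rich in fat and cholesterol, which by the labels lasted 16 weeks, while the study's text gives another length. Per the study's methods, the mice were of C57BL/6J background and the diet was started in male littermates as young adults. The Villin promoter is active in epithelial cells, whereas the enteric neurons that transcribe most of the 10 genes lie below the epithelium. The libraries were therefore mixtures in which neurons were a small part of the RNA. The labels do not say which layers or which stretch of the colon were taken, nor that each library came from its own animal, so the p-values measure the spread between these libraries.

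The enteric nervous system drives gut movement and secretion through neurons that are grouped by what they release. Excitatory motor neurons use acetylcholine and tachykinins to contract the muscle, whereas inhibitory motor neurons use nitric oxide and vasoactive intestinal peptide to relax it. Acetylcholine is made by Chat, loaded into vesicles by Slc18a3 and recovered as choline by Slc5a7. Nitric oxide is made in neurons by Nos1, a gas that is not stored and acts on guanylyl cyclase in the target cell. Peptides are cut from precursors, held in dense-core vesicles and act on G protein-coupled receptors. For the comparison of classes below, Chat, Slc18a3, Slc5a7, Tac1 and Penk were taken as excitatory and Nos1, Vip, Gal and Npy as inhibitory, and Calcb, a peptide of sensory neurons, was placed in neither.

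The promoters of 4 of the genes are shown because their loci bear on the results that follow. Chat and Slc18a3 form 1 cholinergic locus on chromosome 14, and Vip and Gal are the peptides whose levels divided the libraries in another way than genotype did. Each window holds 250 bases before and 50 bases from the start of the RefSeq gene on GRCm38.p6, written 5′ to 3′ on the strand of the gene. Capitals mark matches, on either strand, to 3 motifs. The core of the cAMP response element was searched as TGACGT. Letters of the TATA box were TATAAA, and those of the GC box were GGGCGG.
Chat, chr14:32465860-32466159, minus strand: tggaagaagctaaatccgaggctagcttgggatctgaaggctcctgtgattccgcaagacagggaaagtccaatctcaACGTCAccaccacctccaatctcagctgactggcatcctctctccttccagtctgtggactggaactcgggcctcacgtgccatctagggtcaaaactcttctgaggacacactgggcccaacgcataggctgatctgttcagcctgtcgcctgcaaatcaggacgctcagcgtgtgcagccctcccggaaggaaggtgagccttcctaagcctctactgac
Slc18a3, chr14:32464801-32465100, minus strand: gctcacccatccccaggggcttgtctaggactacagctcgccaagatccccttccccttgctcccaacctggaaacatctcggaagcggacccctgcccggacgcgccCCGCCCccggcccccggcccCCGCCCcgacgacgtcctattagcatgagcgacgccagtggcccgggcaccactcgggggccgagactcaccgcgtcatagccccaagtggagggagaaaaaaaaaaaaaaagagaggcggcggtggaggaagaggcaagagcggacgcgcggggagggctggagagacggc
Vip, chr10:5638968-5639267, plus strand: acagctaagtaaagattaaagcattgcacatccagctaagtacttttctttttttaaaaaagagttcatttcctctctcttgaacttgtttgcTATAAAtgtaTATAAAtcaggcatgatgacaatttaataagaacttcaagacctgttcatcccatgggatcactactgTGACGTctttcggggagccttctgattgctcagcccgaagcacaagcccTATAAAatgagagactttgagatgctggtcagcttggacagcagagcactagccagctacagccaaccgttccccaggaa
Gal, chr19:3414495-3414794, minus strand: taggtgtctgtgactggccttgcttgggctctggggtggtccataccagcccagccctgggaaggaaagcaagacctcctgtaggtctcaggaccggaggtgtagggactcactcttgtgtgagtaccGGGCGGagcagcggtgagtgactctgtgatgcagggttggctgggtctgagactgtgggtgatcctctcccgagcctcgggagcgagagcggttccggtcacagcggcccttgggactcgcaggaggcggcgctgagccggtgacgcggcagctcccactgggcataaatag

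RefSeq windows were found for 8 of the 10 genes, which are the 4 above and Slc5a7, Nos1, Tac1 and Npy. The TGACGT core lay at position -79 in the Vip window and, on the other strand, at position -172 in the Chat window. None of the 8 windows held the full element TGACGTCA, which contains the core. Vip also held TATAAA at -157, -147 and -30, and Slc5a7 held it at -187. GGGCGG was found in Slc18a3 (at -142 and -122, other strand), Gal (-122), Tac1 (-107) and Npy (-95), and none of these letters was found in the Nos1 window. That window, chr5:117866589-117866888, lies inside the span of Nos1 given below and not at its start. Of 32851 promoter windows of the same length, 1.79% held TGACGTCA, 7.51% held TGACGT, 13.6% held TATAAA and 35.7% held GGGCGG. These matches describe letters and not sites.

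The 10 genes lie on 8 chromosomes in the GENCODE M21 annotation of GRCm38. Slc18a3 (chr14:32462438-32464850, minus strand) lies inside the span of Chat (chr14:32408203-32465989, same strand), the 2 genes sharing no exon bases, so reads over exons could be told apart. Slc5a7 is at chr17:54273590-54299034 (minus), Nos1 at chr5:117781032-117958840 (plus), Vip at chr10:5639218-5647617 (plus) and Gal at chr19:3409915-3414544 (minus). Tac1 and Npy share chromosome 6, at chr6:7554879-7565834 and chr6:49822710-49829507 (both plus), while Penk is at chr4:4133531-4138819 (minus) and Calcb at chr7:114718643-114723365 (plus). On the opposite strand, 268 exon bases of Nos1 overlap Gm26995, which was not in the count tables, and 233 exon bases of Penk overlap A830012C17Rik, which had 0 to 1 counts in a library. Calcb is a close paralog of Calca, so reads shared between them could be placed with uncertainty, although Calca itself had only 0 to 11 counts in a library against 36 to 270 for Calcb.

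Library totals were 38041832 to 38604680 counts, so that 3 counts, the most a count of 0 allows, equalled at most 0.0847 CPM (counts scaled to a shared sequencing depth), a limit for counting error only. Nsd2 was lower in all 3 NSD2∆IE libraries (23.1 to 27.4 CPM) than in all 3 NSD2fl/fl libraries (47.8 to 68.9 CPM). Xist had 0 to 4 counts in the NSD2fl/fl libraries and 21217 to 24234 in the NSD2∆IE libraries, and the Y-linked genes together had 5058 to 6110 against 0 to 1 counts. The libraries thus followed a male pattern in one group and a female pattern in the other, and sex and genotype cannot be told apart in any difference below. The first principal component took 51.0% of the variance and did not follow genotype, since NSD2fl/fl replicates 1 and 3 and NSD2∆IE replicate 1 had negative scores and NSD2fl/fl replicate 2 and NSD2∆IE replicates 2 and 3 positive ones. Over all genes tested, 0.0306% (5 genes) had an adjusted p under 0.05. At the threshold of the study (unadjusted p under 0.05 and a log2 fold change beyond 0.32 in size), 8.05% were higher and 2.21% lower in NSD2∆IE. Of all genes at that threshold, 78.5% were in the higher direction. That share was 88.7% with upper-quartile factors and 92.4% with library totals alone. The groups did not overlap for 11.4% of genes in the higher and 7.28% in the lower direction.

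Levels between genes were compared by FPKM, which divides by gene length, over all 6 libraries. Vip was the most abundant transmitter gene at 35.3 ± 8.13 FPKM (SD, n = 6), and its lowest library (24.4) stood above the highest library of Tac1 (20.04). Tac1 (14.5 ± 4.45), Gal (13.6 ± 8.28) and Penk (12.2 ± 5.34 FPKM) followed with overlapping ranges. Penk exceeded Nos1 (2.07 ± 1.12 FPKM) in 6 of 6 libraries with no overlap of their ranges. The ranges of neighbours below Nos1 overlapped, from Calcb (1.26 ± 0.644) and Npy (1.24 ± 0.541) to Slc18a3 (1.03 ± 0.525), Chat (0.550 ± 0.221) and Slc5a7 (0.407 ± 0.220 FPKM). The peptide precursors Vip, Tac1, Gal and Penk were thus each more abundant, per length, than the enzymes and transporters of the small-molecule transmitters.

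The order rests in part on the gene length behind the deposited FPKM. The length implied for Vip was 1617 bases against 3402 exon bases in GENCODE, and those for Tac1 were 1326 and 3399. With GENCODE lengths, a choice made after the lengths were seen, Vip had 16.8 ± 3.86 and Gal 13.6 ± 8.28 FPKM recomputed on that length, with overlapping ranges. Tac1 fell to the place after Penk at 5.68 ± 1.74, and Calcb, whose implied length was 3446 bases against 1264, moved above Nos1 at 3.43 ± 1.76 against 1.80 ± 0.972. Comparisons of 1 gene between libraries do not depend on its length.

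The comparison of NSD2∆IE with NSD2fl/fl asked whether the transmitter genes differed after loss of intestinal NSD2. Of the 10 genes, 9 were fitted above 0 and 1 (Npy) below, with a median log2 fold change of 0.67 against -0.04 for all genes tested, of which 43.7% were fitted above 0. None of the 10 had an adjusted p under 0.05 in edgeR's quasi-likelihood test. In that test 2 had an unadjusted p under 0.05, as did 1816 of the 16347 genes tested. DESeq2 called 1 of these 2, Penk, and 455 of all genes. At the threshold of the study, 2 genes (Penk and Tac1) rose and none fell, beside 8.05% and 2.21% of all genes. With 1 library left out the number that rose was 4 without NSD2fl/fl replicate 1, 3 without NSD2fl/fl replicate 2 and 1, Penk, without NSD2∆IE replicate 2. The groups did not overlap for 4 genes, Chat, Slc18a3, Nos1 and Penk, all of them higher in NSD2∆IE, against 11.4% of all genes in that direction. In bulk tissue, fewer cells of a type and less RNA per cell cannot be told apart.

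**Figure D1:**
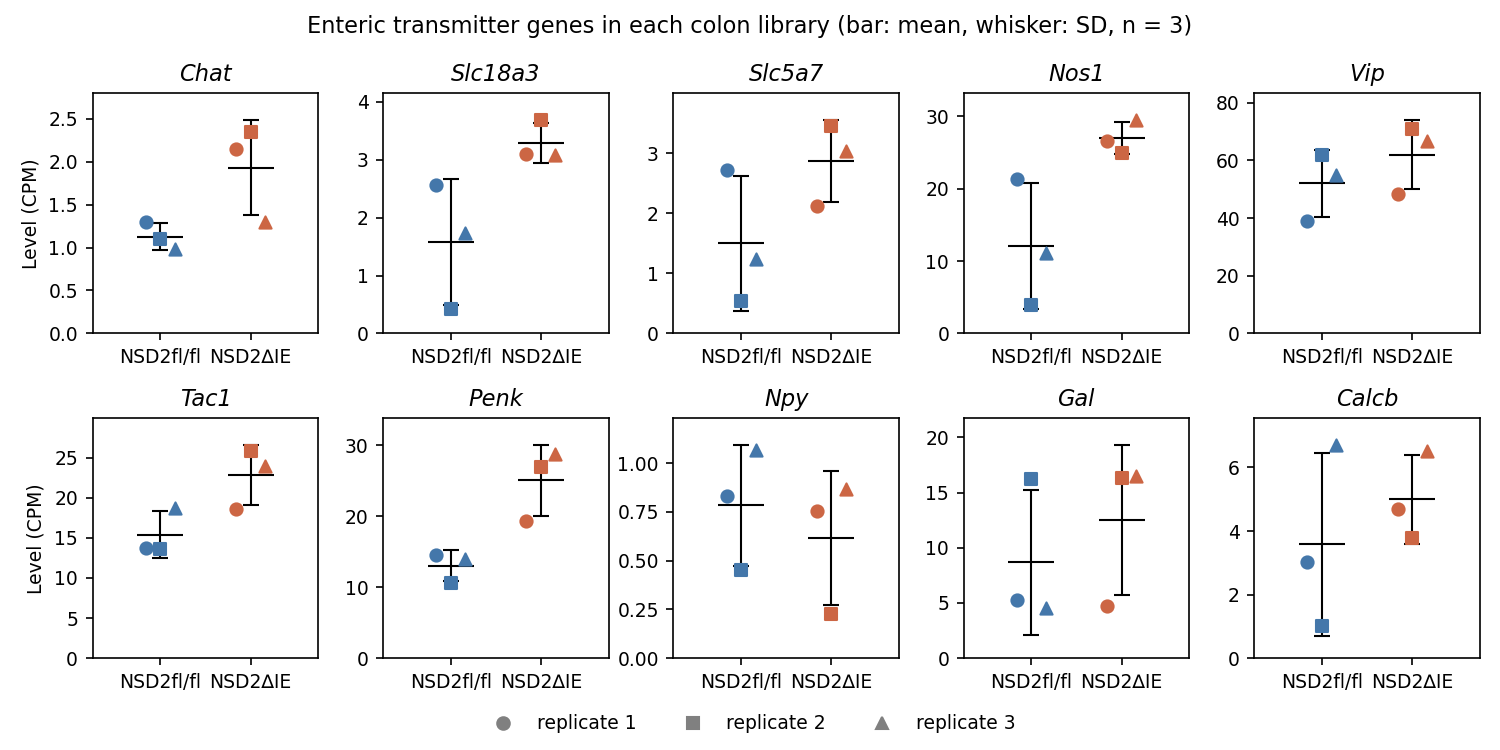
Level of each of the 10 transmitter genes in CPM (vertical axis, starting at 0, with its own scale for each gene) in the 3 NSD2fl/fl and 3 NSD2∆IE libraries, with the mean as a horizontal bar and the SD as a whisker. Penk and Nos1 show groups that do not overlap, Gal shows 3 libraries near 5 and 3 near 16 CPM, and NSD2fl/fl replicate 2 (square) is the lowest point of Slc18a3, Slc5a7, Nos1, Penk and Calcb.

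The cholinergic genes were all of low level. Chat, the enzyme that makes acetylcholine, was counted 50, 39 and 35 times in NSD2fl/fl replicates 1, 2 and 3, an order kept below, and 85, 93 and 54 times in those of NSD2∆IE. Its CPM values were 1.298, 1.10 and 0.982 against 2.14, 2.35 and 1.301. The groups of Chat barely failed to overlap, since the highest NSD2fl/fl library and the lowest NSD2∆IE library were almost level. The mean was 1.13 ± 0.159 CPM in NSD2fl/fl and 1.93 ± 0.554 CPM in NSD2∆IE (SD, n = 3), and the fitted change was 0.77 on the log2 scale (SE 0.329, adjusted p = 0.454).

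Slc18a3, the vesicular acetylcholine transporter, had 2.57, 0.424 and 1.74 CPM in NSD2fl/fl and 3.10, 3.68 and 3.08 CPM in NSD2∆IE. All NSD2∆IE libraries were above all NSD2fl/fl libraries, and NSD2fl/fl replicate 2, with 15 counts, was far below the rest. The log2 fold change was 1.06 (SE 0.575, adjusted p = 0.558). Slc5a7, the choline transporter, had 2.73, 0.537 and 1.24 CPM in NSD2fl/fl and 2.12, 3.46 and 3.04 CPM in NSD2∆IE. Here the groups overlapped, as NSD2fl/fl replicate 1 exceeded NSD2∆IE replicate 1, and the log2 fold change was 0.93 (SE 0.566, adjusted p = 0.596). Without NSD2fl/fl replicate 1 Slc5a7 was at 1.69 and Slc18a3 at 1.598, both past the threshold of the study, and without NSD2fl/fl replicate 2 they were at 0.53 and 0.60, short of it. Within NSD2fl/fl the highest library held 6.07 times the level of the lowest for Slc18a3 and 5.08 times for Slc5a7, but 1.32 times for Chat.

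Chat and Slc18a3 thus did not keep a fixed ratio although they share a locus. The ratio of Slc18a3 to Chat in FPKM was 2.30, 0.448 and 2.06 in the NSD2fl/fl libraries and 1.68, 1.83 and 2.76 in the NSD2∆IE libraries. Only in NSD2fl/fl replicate 2 was it below 1. Chat is also transcribed in tuft cells, the chemosensory cells of the epithelium. Of their 9 markers, 4 rose at the threshold of the study (Trpm5, Dclk1, Pou2f3 and Sh2d6), against 8.05% of all genes. Above 0 were 8 of 9, against 43.7% of all genes, with a median log2 fold change of 0.49. The summed level of the tuft cell list was 84.3 to 91.03 CPM in NSD2fl/fl and 102 to 139 CPM in NSD2∆IE, and its part in the values of Chat was not tested.

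Nos1, the neuronal nitric oxide synthase, had the largest fitted change of the 10 genes. It had 21.3, 3.98 and 11.1 CPM in NSD2fl/fl and 26.6, 24.99 and 29.5 CPM in NSD2∆IE. The NSD2∆IE libraries lay within 1.18-fold of each other, all above the NSD2fl/fl libraries, which spread over 5.35-fold. The means were 12.1 ± 8.71 and 27.004 ± 2.27 CPM (SD, n = 3), and the log2 fold change was 1.15 (SE 0.526, 95% interval -0.10 to 2.40, adjusted p = 0.482). Without NSD2fl/fl replicate 2, the library with 141 Nos1 counts where the other NSD2fl/fl libraries had 821 and 395, it was 0.73, and without NSD2fl/fl replicate 1 it was 1.84. In both of these fits Nos1 was past the threshold of the study.

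Among the peptides of excitatory neurons, Penk and Tac1 rose at the threshold of the study. Penk, the precursor of the enkephalins, had 14.6, 10.5 and 13.98 CPM in NSD2fl/fl and 19.4, 27.0 and 28.8 CPM in NSD2∆IE, without overlap. Its mean went from 13.03 ± 2.18 to 25.1 ± 5.01 CPM (SD, n = 3), a log2 fold change of 0.94 (SE 0.204, 95% interval 0.46 to 1.43). By edgeR's quasi-likelihood test the unadjusted p was 0.00264, rank 122 of the 16347 genes, and the adjusted p was 0.302. DESeq2 gave an adjusted p of 0.00725 for the same counts, within a range of 0.00725 to 0.990 over 16 alternatives.

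Tac1, the precursor of substance P and neurokinin A, had 13.8, 13.6 and 18.8 CPM in NSD2fl/fl and 18.6, 25.9 and 24.0 CPM in NSD2∆IE. NSD2fl/fl replicate 3 stood just above NSD2∆IE replicate 1, so the groups overlapped by these 2 libraries. The log2 fold change was 0.57 (SE 0.193, 95% interval 0.11 to 1.03), with an unadjusted p of 0.022 by edgeR's quasi-likelihood test and an adjusted p of 0.366. The unadjusted p was no longer under 0.05 when NSD2fl/fl replicate 1, NSD2fl/fl replicate 2, NSD2∆IE replicate 2 or NSD2∆IE replicate 3 was left out, with Tac1 fitted from 0.47 to 0.74 over all alternatives. Of the peptide-producing endocrine cells of the epithelium, which also transcribe Tac1, 6 of 8 markers were fitted below 0. At the threshold of the study 1 (Rfx6) fell, beside 2.21% of all genes. The summed level of that list was 228 to 321 CPM in NSD2fl/fl and 171 to 297 CPM in NSD2∆IE, and its part in the values of Tac1 was not tested.

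The peptides placed with inhibitory neurons moved less than Nos1 did. Vip, the precursor of vasoactive intestinal peptide, had 39.0, 61.9 and 55.04 CPM in NSD2fl/fl and 48.3, 70.9 and 66.5 CPM in NSD2∆IE. The groups overlapped widely, with a fitted log2 change of 0.25 (SE 0.216, 95% interval -0.26 to 0.77, adjusted p = 0.704). That interval leaves out a doubling and a halving of Vip. With 1 library left out the change of Vip ranged from 0.08 (without NSD2fl/fl replicate 1) to 0.41 (without NSD2∆IE replicate 1). Npy, or neuropeptide Y, was near the limit of the counts with 32, 16 and 38 in NSD2fl/fl and 30, 9 and 36 in NSD2∆IE, or 0.831, 0.452 and 1.07 CPM against 0.757, 0.227 and 0.867 CPM. Its log2 fold change was -0.34 (SE 0.580, adjusted p = 0.847), and it was 0.05 without NSD2∆IE replicate 2. Npy is also a peptide of sympathetic fibres, of whose markers Dbh had 126 to 316, Th 0 to 10 and Slc6a2 0 to 4 counts in a library. Of 4 sympathetic markers 2 were tested. At the threshold of the study 1 rose (Slc18a2), beside 8.05% of all genes, and Dbh, at a log2 fold change of 0.47, did not pass it. Slc18a2 is also in the list of other transmitters below. The summed level of the 4 markers was 4.69 to 8.57 CPM in NSD2fl/fl and 9.36 to 12.1 CPM in NSD2∆IE, and their part in the values of Npy was not tested.

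Gal, the precursor of galanin, had 5.24, 16.3 and 4.52 CPM in NSD2fl/fl and 4.72, 16.4 and 16.6 CPM in NSD2∆IE. It formed 2 levels that did not follow genotype, and its log2 fold change was 0.53 (SE 0.640, adjusted p = 0.785). Without NSD2fl/fl replicate 2, the only NSD2fl/fl library at the higher level, it was 1.36 and past the threshold of the study. Calcb, which encodes a calcitonin gene-related peptide of sensory neurons, had 3.01, 1.02 and 6.71 CPM in NSD2fl/fl and 4.69, 3.78 and 6.50 CPM in NSD2∆IE. The NSD2∆IE range fell inside that of NSD2fl/fl, with a fitted log2 change of 0.48 (SE 0.617, adjusted p = 0.799). Leaving out NSD2fl/fl replicate 2 gave 0.046, and leaving out replicate 3 of that group gave 1.299.

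**Figure D2:**
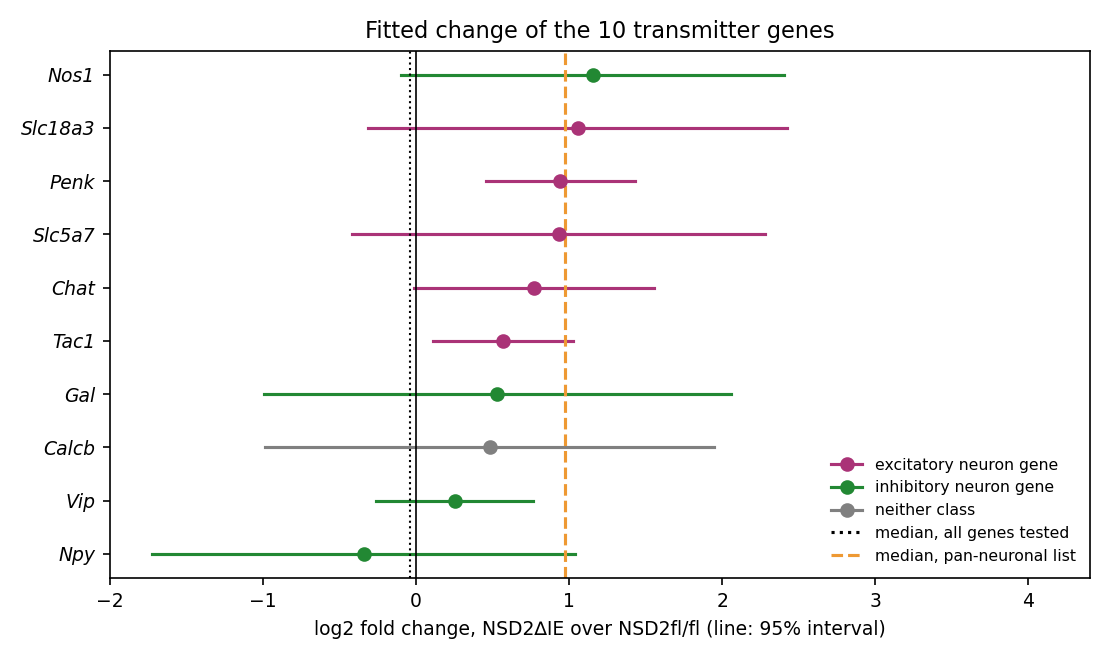
Log2 fold change of NSD2∆IE over NSD2fl/fl for the 10 genes (points, horizontal axis) with 95% intervals (lines), coloured by neuron class, beside the medians of all genes tested (dotted, -0.04) and of the pan-neuronal list (dashed, 0.98). The intervals of Penk and Tac1 lie above 0 and those of the other 8 genes include 0.

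Excitatory genes were set against inhibitory ones within each library, as the mean log2 CPM of the 5 excitatory genes minus that of the 4 inhibitory genes. All 5 excitatory genes were fitted above 0 (median log2 fold change 0.93, 2 past the threshold of the study), as were 3 of the 4 inhibitory genes (median 0.39, none past it). The balance was -0.79, -1.64 and -1.04 in the NSD2fl/fl libraries and -0.59, -0.36 and -1.09 in the NSD2∆IE libraries. The inhibitory mean was higher in every library on this scale. Since CPM is not divided by gene length, that sign does not compare levels between genes. The groups overlapped, as NSD2∆IE replicate 3 was below NSD2fl/fl replicates 1 and 3. The group means of the balance were -1.16 ± 0.437 and -0.68 ± 0.371 (SD, n = 3), a difference of 0.48 that was of the size of the spread within the groups. It was 0.24 without NSD2fl/fl replicate 2.

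The direction of the balance depended on which genes stood for each class. The mean log2 CPM of the 3 cholinergic genes minus the log2 CPM of Nos1 alone was -2.98 ± 0.388 in NSD2fl/fl and -3.36 ± 0.335 in NSD2∆IE (SD, n = 3), a difference of -0.38, opposite in sign to that of the wider classes. The groups overlapped here too (-3.32, -2.56 and -3.06 against -3.43, -2.99 and -3.65), and the difference was -0.17 without NSD2fl/fl replicate 2. The ratio of Nos1 to Chat in FPKM was 4.76, 1.05 and 3.27 in NSD2fl/fl and 3.59, 3.09 and 6.56 in NSD2∆IE, with overlapping groups. The ratio of Vip to Nos1 in FPKM was 11.0, 93.2 and 29.8 in NSD2fl/fl and 10.9, 17.01 and 13.5 in NSD2∆IE, the 93.2 being that of NSD2fl/fl replicate 2, in which Vip was high and Nos1 low. The ratio of Tac1 to Vip, 2 peptides of opposite action, was 0.431, 0.268 and 0.416 in NSD2fl/fl and 0.470, 0.445 and 0.440 in NSD2∆IE. Its groups did not overlap, but only by the step from 0.431 to 0.440, and those of the ratio of Gal to Vip did overlap. How many ratios of other genes separate as well was not counted.

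Markers shared by all neurons, and then those of other cells, were examined beside these genes. The lists were chosen with earlier results of these data known. For comparison with their counts, 8.05% of all genes rose and 2.21% fell at the threshold of the study. Without overlap, 11.4% of all genes were higher and 7.28% lower in NSD2∆IE. All 14 genes of a pan-neuronal list (among them Elavl4, Uchl1, Tubb3 and Prph) rose at the threshold of the study, with a median log2 fold change of 0.98, and 13 of 14 did not overlap between groups. The summed level of the list was 156, 80.0 and 122 CPM in NSD2fl/fl and 201, 246 and 244 CPM in NSD2∆IE. Enteric glia markers rose for 5 of the 7 tested (median 1.14), but their summed level was 367, 692 and 201 CPM in NSD2fl/fl and 311, 422 and 306 CPM in NSD2∆IE. Most of that sum was Erbb3, which epithelium also transcribes and which was fitted at -0.41, and Fabp7, with 3 to 22 counts in a library, was not tested and was lower in all NSD2∆IE libraries. Smooth muscle markers rose for 8 of 10 (median 1.20), summing to 1671 to 4440 CPM in NSD2fl/fl and 5533 to 11881 CPM in NSD2∆IE. None of the 10 epithelial markers was fitted above 0 (median -0.31, 1 past the threshold of the study, Elf3), with 13756 to 22483 CPM in NSD2fl/fl and 13050 to 14944 CPM in NSD2∆IE. Of the 7 fibroblast markers 3 rose (median 0.04), of the 3 pacemaker cell markers 1 rose, and none of 7 lymphocyte markers passed the threshold. The part of these lists in the transmitter values was not tested.

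The transmitter genes were then read relative to the pan-neuronal list, as log2 CPM minus the mean log2 CPM of that list in the same library. On this scale Penk was 0.77, 1.28 and 1.09 in NSD2fl/fl and 0.80, 0.97 and 1.12 in NSD2∆IE, a difference of -0.08. Tac1 differed by -0.45 (0.69, 1.64 and 1.51 against 0.74, 0.91 and 0.86) and Vip by -0.76 (2.19, 3.83 and 3.06 against 2.11, 2.37 and 2.33). The groups overlapped for each of these 3 peptides. The difference was 0.44 for Nos1, 0.33 for Slc18a3 and 0.14 for Slc5a7, and -0.30 for Chat, -0.21 for Calcb and -0.44 for Gal, each smaller than the larger of its SDs within a group. Without NSD2fl/fl replicate 2 the differences were -0.27 for Tac1, -0.36 for Vip, 0.05 for Nos1, -0.14 for Slc18a3, -0.16 for Slc5a7, -0.05 for Chat, -0.64 for Calcb and 0.39 for Gal. Those of Slc18a3, Slc5a7 and Gal thus changed sign, as did the small difference of Penk.

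Npy was the only 1 of the 10 whose relative values did not overlap between groups. Because the pan-neuronal list itself rose, 69.8% of all genes were lower without overlap on this scale and 0.526% higher, so the separation of Npy is not a result about Npy. The NSD2fl/fl values were -3.28, -3.11 and -2.56 and the NSD2∆IE values -3.79, -5.62 and -3.85, a difference of -1.44 that was -0.84 without NSD2∆IE replicate 2. With the smooth muscle list as the reference, the differences ranged from -1.72 for Npy to 0.16 for Nos1, and those of Nos1 and Slc18a3 (0.05) were the only ones above 0.

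**Figure D3:**
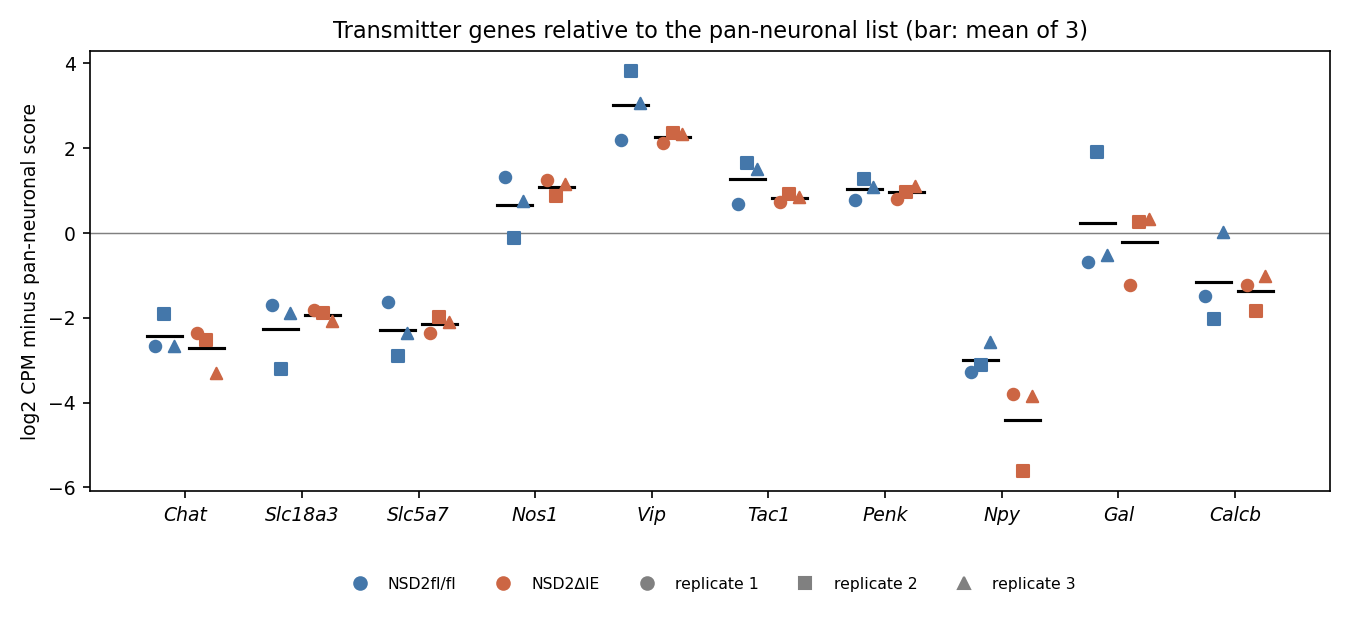
Log2 CPM of each transmitter gene minus the mean log2 CPM of the 14 pan-neuronal genes of the same library (vertical axis), with a bar for the mean of 3 libraries. The NSD2fl/fl and NSD2∆IE points overlap for 9 genes and are apart for Npy, on a scale where 69.8% of all genes are lower without overlap, and the NSD2∆IE points of Vip, Tac1, Slc18a3 and Nos1 lie closer together than the NSD2fl/fl points.

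The division of the libraries on the first principal component was followed by Gal and Vip. On its negative side Gal had 4.52 to 5.24 CPM and on its positive side 16.3 to 16.6 CPM, a 3.40-fold difference of means, and Vip had 39.0 to 55.04 and 61.9 to 70.9 CPM, a 1.40-fold difference. Both genes were higher in every library of the positive side, as were 9.55% of all genes, while 12.8% were lower in every library of that side. The rise of Gal was matched or passed by 1.74% of all genes and that of Vip by 11.3%. The 10 genes were among those from which the component was computed, so these values describe the division and do not test it.

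Within each side Gal differed between genotypes by very little, the log2 difference of NSD2∆IE from NSD2fl/fl being -0.05 on the negative and 0.02 on the positive side. Nos1 was higher in NSD2∆IE on both sides, by 0.79 on the negative and by 2.75 on the positive side, where NSD2fl/fl replicate 2 was the only control. Slc18a3 was higher by 0.54 and 2.85, Slc5a7 by 0.20 and 2.48, Penk by 0.44 and 1.40, Chat by 0.89 and 0.64, Tac1 by 0.21 and 0.87 and Calcb by 0.06 and 2.23. A fit with the side as a covariate is a description too, since the side was computed from these same values. On the negative side, NSD2∆IE replicate 1 was the only NSD2∆IE library. In that fit by edgeR's quasi-likelihood method, Nos1 had a log2 fold change of 1.70 and Slc18a3 of 1.60. Gal was then at -0.02. No gene of the 10 had an adjusted p under 0.05 in that fit.

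**Figure D4:**
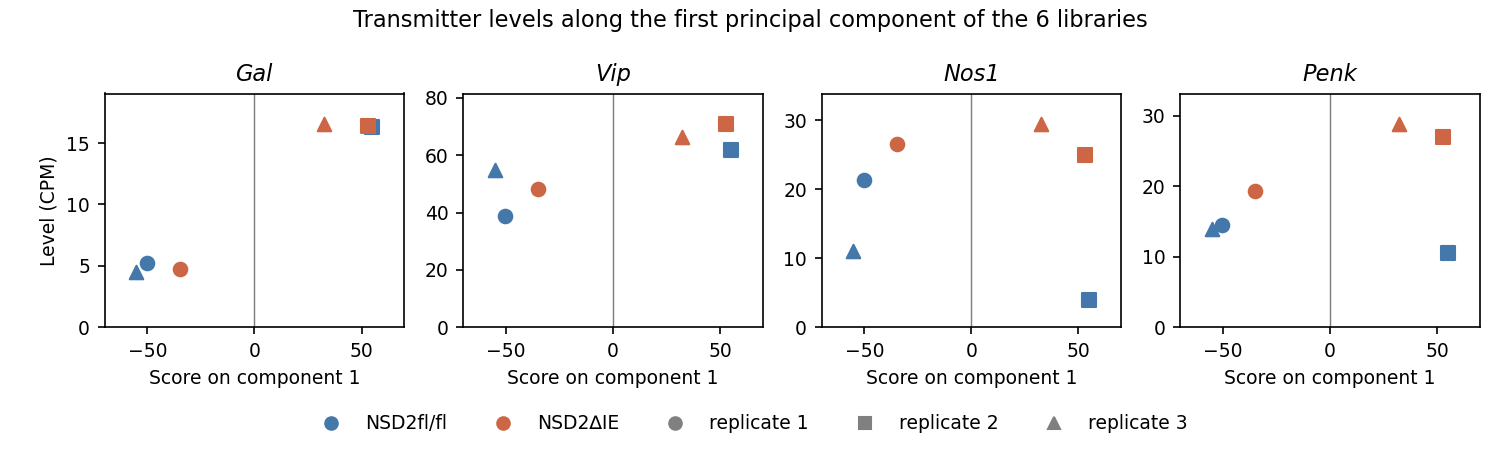
Level in CPM of Gal, Vip, Nos1 and Penk (vertical axes, starting at 0) against the score of each library on the first principal component of log2 CPM (horizontal axis, no unit). Gal and Vip are higher in the 3 libraries with positive scores, whereas Nos1 and Penk are lowest in NSD2fl/fl replicate 2 and high in NSD2∆IE on either side.

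Across the 6 libraries the genes fell into sets that moved together, given here as descriptions, since the libraries share genotype, sex pattern and the division above. Slc18a3 and Nos1, of opposite classes, had a Pearson r of 0.98 (Spearman 0.77), which was 0.92 without NSD2fl/fl replicate 2 and 0.49 without the 2 libraries farthest from the median. Slc18a3 and Slc5a7 had an r of 0.96 and Slc5a7 and Nos1 an r of 0.96, which fell to 0.45 and 0.01 without those 2 libraries. These relations thus rest on the libraries left out. Tac1 and Penk had an r of 0.90, and 0.80 without the 2 farthest, and Vip and Gal 0.81 and 0.89.

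The mean of the pan-neuronal list had an r of 0.96 with Penk, 0.95 with Nos1 and 0.93 with Slc18a3. It had an r of 0.17 with Vip, 0.11 with Gal and -0.15 with Npy, which became 0.58, 0.81 and -0.64 without NSD2fl/fl replicate 2. The low values for Vip and Gal thus rest on that library. Penk was as close to other lists, with an r of 0.99 for sympathetic fibre, 0.99 for enteric glia, 0.95 for fibroblast and 0.94 for smooth muscle markers, and the epithelial list had an r of -0.97 with both Nos1 and Slc18a3. Among 13102 genes searched, those most like Penk were Gfpt2 (r 0.999), Meis1 (0.997) and Fxyd1 (0.997), and those most like Nos1 were 1110051M20Rik (0.998), P3h3 (0.997) and Garnl3 (0.997). Tub (0.997), Cp (0.996) and 5730409E04Rik (0.996) were most like Slc18a3, and Htra1 (0.995), Dmd (0.991) and Gpr146 (0.991) most like Slc5a7. Chat had the weakest best match, with Cep85l (0.959), B3galt2 (0.956) and Dusp28 (0.945). Gal was most like Apol10a (0.996), Smim14 (0.996) and Tsc22d1 (0.993), and Vip most like H2-T-ps (0.990), Hcfc1r1 (0.988) and Arl2bp (0.987). For Tac1 they were S1pr3 (0.992), Lysmd2 (0.989) and Mrpl23 (0.988), for Npy Areg (0.990), Stk38l (0.984) and Abcg3 (0.981), and for Calcb Tead2 (0.993), Clic4 (0.987) and Slc25a26 (0.983). Each of these matches rests on 6 libraries.

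The genes that receive, process or accompany these transmitters were described through 5 lists. Of 63 listed genes 54 were tested, of which 25 rose and none fell at the threshold of the study, against 8.05% and 2.21% of all genes, with a median log2 fold change of 0.69. None had an adjusted p under 0.05 in edgeR's quasi-likelihood test. In that test 26 had an unadjusted p under 0.05, against 1816 of the 16347 genes tested. DESeq2 called 9, against 455 of all genes. Without NSD2∆IE replicate 2, 16 rose. Among the genes tested, 26 had groups that did not overlap, all higher in NSD2∆IE, against 11.4% of all genes. Of those counted but not tested, all at 12 counts or fewer in every library, Th and Galr3 were higher and Calca lower without overlap.

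Peptide receptors, the longest list, had the largest number of genes past the threshold, 10 of 16 tested, with a median log2 fold change of 1.01. The nitric oxide list had 4 of 6, a larger share. Tacr2, the neurokinin A receptor of smooth muscle, had 6.65, 4.18 and 5.73 CPM in NSD2fl/fl and 10.9, 16.8 and 22.7 CPM in NSD2∆IE, fitted at 1.61 on the log2 scale (SE 0.312, adjusted p = 0.302). Tacr3, the neurokinin B receptor, was low at 0.170 to 0.309 CPM in NSD2fl/fl and 0.429 to 1.26 CPM in NSD2∆IE (log2 fold change 1.98). Adcyap1r1, the receptor for the peptide PACAP, had a log2 fold change of 1.08, the galanin receptor Galr2 one of 1.40 and Ramp2, a partner of the calcitonin receptor-like receptor, one of 0.52. Of the opioid receptors, on which the products of Penk act, Oprd1 (log2 fold change 0.93) and Oprk1 (1.87) also rose without overlap of the groups, and are named after their values were seen. Oprm1 had 0 to 10 counts in a library and was not tested, nor were Npy5r and Galr3. Of the 16 tested, 13 were fitted above 0, against 43.7% of all genes. The 3 fitted below 0, also named after their values were seen, were Vipr1 (-0.10), Npy1r (-0.26) and Ramp1 (-0.11).

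For acetylcholine, 3 of 10 genes rose (median 0.49). Chrna3, the nicotinic receptor subunit of enteric and autonomic neurons, had a mean of 5.83 ± 1.91 CPM in NSD2fl/fl and 11.9 ± 2.61 CPM in NSD2∆IE (SD, n = 3), a log2 fold change of 1.02. Chrna5, an accessory subunit, went from 0.255 ± 0.0276 to 0.909 ± 0.225 CPM (log2 fold change 1.82), and Ache, which breaks acetylcholine down, from 11.3 ± 2.49 to 15.6 ± 1.30 CPM (0.46). On the nitric oxide side, 4 of 6 genes rose (median 0.73). They were both subunits of the nitric oxide receptor, Gucy1a1 (log2 fold change 0.70) and Gucy1b1 (0.76), the kinase Prkg1 (1.08) and its substrate Mrvi1 (0.92), genes that smooth muscle also transcribes.

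Of the genes that process and store peptides, 5 of 10 rose (median 0.63). Cpe, the carboxypeptidase that trims peptide precursors, had 107, 63.8 and 94.8 CPM in NSD2fl/fl and 148, 201 and 223 CPM in NSD2∆IE, fitted at 1.10 on the log2 scale (SE 0.237, adjusted p = 0.302). The granule proteins Scg3 (0.86) and Scg5 (0.56), the convertase Pcsk2 (1.00) and the convertase inhibitor Pcsk1n (0.71) rose as well. Chga, the granule protein most abundant in endocrine cells, had a log2 fold change of 0.01, and was named after its values were seen. Of the other transmitter genes 12 of 18 were tested and 3 rose (median 0.37), namely Slc18a2, the vesicular monoamine transporter (1.42), Cartpt, a peptide of enteric neurons (1.95), and Sst, or somatostatin (1.00). Sst had 22.5, 20.4 and 21.9 CPM in NSD2fl/fl and 22.7, 57.7 and 49.1 CPM in NSD2∆IE, so its rise was carried by NSD2∆IE replicates 2 and 3.

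**Figure D5:**
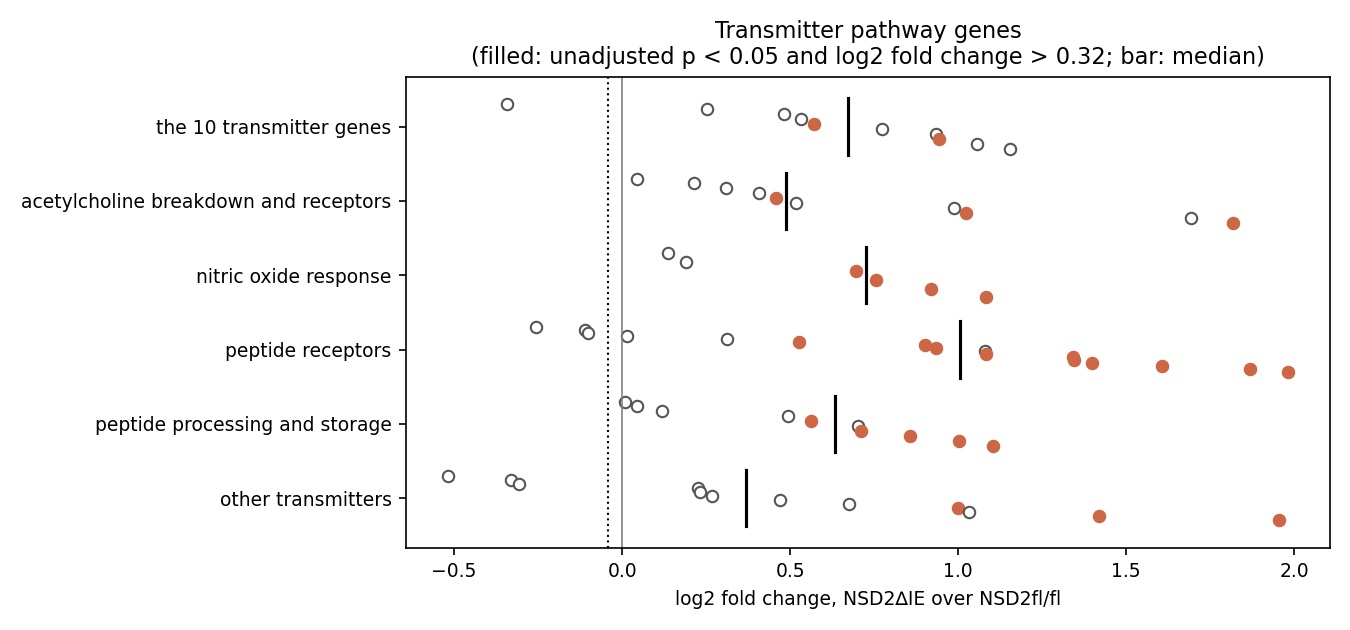
Log2 fold change of NSD2∆IE over NSD2fl/fl (horizontal axis) for each tested gene of the 10 transmitter genes and of 5 lists of related genes (rows), filled where the unadjusted p was under 0.05 with a log2 fold change beyond 0.32, with a bar for the median of each row and a dotted line for the median of all genes tested. Filled points lie above 0 in every row, 2 of 10 for the transmitter genes and 10 of 16 for the peptide receptors.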

How the data were processed

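Colon RNA from NSD2fl/fl and NSD2∆IE mice was sequenced, in 3 libraries a group. The authors deposited, for each library, read counts per gene symbol and FPKM values. The submitters' processing notes name fastp, HISAT2, HTSeq, R 3.2.0 and build mm10, without roles, and the annotation and the use of strand are not given in the sources used here. For 17863 genes the deposited FPKM equalled count over length and total, to within 0.0638 bases of a whole length.

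Counts were analysed in R 4.3.3 with edgeR 4.0.16 (filterByExpr, TMM factors, glmQLFit and glmQLFTest, two-sided, no covariate), with Benjamini-Hochberg adjustment over the 16347 genes tested. Where no tool is named beside an adjusted p, it comes from this fit. The SE is the size of the log2 fold change over the square root of F. Log2 CPM used a prior count of 2. No pair of libraries was alike within sampling noise (chi-square over its degrees of freedom at least 35.46). The fit was also run on simulated counts, with an outcome that is not given here.

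Alternatives were other scalings, DESeq2 1.42.0, limma-voom (limma 3.58.1), no filter, FPKM, a replicate block, the side of the first principal component and leaving out each library. The members and lists were chosen with earlier results of these data known. Named genes were the members, Nsd2, up to 5 genes of each list past the study's threshold without overlap, by p, and the 3 genes most correlated with each member (mean log2 CPM of at least 1). Gene positions were matched by symbol to GENCODE M21.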

Additional observations from a re-analysis of the deposited data

How the results depend on the processing

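The directions of 8 of the 10 transmitter genes held in all 16 alternatives. The exceptions were Gal, at -0.015 (log2) with the side of the first principal component as a covariate, and Npy, at -0.67 to 0.052 with 1 library left out (above 0 without NSD2∆IE replicate 2). The number of the 10 genes that rose past the study's threshold was 2 in the main test. It was 4 with DESeq2 (Chat and Nos1 added), 4 with limma-voom, 4 on log2(FPKM + 1), 5 on log2(FPKM + 0.1), 4 with the side as a covariate and 1 at a fold change over 1.5, and it ranged from 1 (Penk, without NSD2∆IE replicate 2) to 4 (without NSD2fl/fl replicate 1) with 1 library left out. Penk was among them in each of these settings. Of all genes past the threshold, 78.5% were in the higher direction in the main test, 77.5% with DESeq2 and 80.8% with limma-voom. That share was 92.8% on log2(FPKM + 1), 93.1% on log2(FPKM + 0.1) and 73.0% with the side as a covariate. All genes that rose were 1316 in the main test, 1485 with DESeq2 and 1444 with limma-voom. DESeq2 gave 1 adjusted p under 0.05 among the 10 genes and 455 among all genes, against 0 and 5 in edgeR. The related genes that rose ranged from 16 (without NSD2∆IE replicate 2) to 28 with 1 library left out, against 25. Those that fell were 1 without the filter (Calca), 1 with the side as a covariate (Nts) and 0 to 1 with 1 library left out (Ddc, without NSD2fl/fl replicate 2), against 0. The median of all genes moved from -0.04 to 0.09 with library totals alone, where the signs of the 10 genes held. The genes that fell over all genes went from 361 to 142 with library totals alone and to 607 without the filter. Same-numbered libraries deviated together with correlations of 0.50, 0.64 and -0.17. Both libraries numbered 1 lay on the negative side of the first principal component and both numbered 2 on the positive side. These correlations therefore cannot decide whether the numbers pair the libraries. With the replicate block 3 of the 10 genes rose (Nos1, Tac1 and Penk) and the median log2 fold change was 0.76. The limits on precision included the spread between libraries (biological coefficient of variation 0.311) and low counts. The lowest library had 9 counts of Npy, 15 of Slc18a3, 19 of Slc5a7, 35 of Chat and 36 of Calcb.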

Other observations

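Nts, the precursor of neurotensin and a gene of the list of other transmitters, was named after its values were seen. NSD2fl/fl replicates 1, 2 and 3 gave 3, 2761 and 4 counts of it, and those of NSD2∆IE gave 3, 1801 and 691. The 3 libraries with high counts were those on the positive side of the first principal component, on which Gal and Vip were also higher, and its log2 fold change between genotypes was -0.33. Calca, the paralog of Calcb, had 11, 2 and 6 counts in NSD2fl/fl and 0, 0 and 1 in NSD2∆IE, while Calcb had 116, 36 and 239 and then 186, 150 and 270. Chga had 3047, 8396 and 1846 counts in NSD2fl/fl and 4107, 6448 and 4314 in NSD2∆IE, highest in NSD2fl/fl replicate 2, the library in which Nos1, Slc18a3 and Slc5a7 were lowest.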
